A study of Mus musculus with 6 samples.

Results

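The 7 genes described are Hmgcs1, Sqle, Idi1, Insig1, Cyp51, Fdft1 and Lss, genes of cholesterol synthesis and its control that are known targets of the transcription factor SREBP2. They were taken by gene name from the tables of the irradiated mouse cortex, where each name matched 1 row, so they are 7 of 51826 genes in the tables and 7 of the 18345 that had enough counts to be tested. The bulk RNA sequencing data held 6 libraries of polyadenylated RNA from the cortex of male Balb/c mice aged 6 to 8 weeks, taken on day 3 after whole-brain irradiation with a single 10 Gy dose. Lgmn+/+-IR (n = 3) carried wild-type Lgmn, the gene for the lysosomal protease AEP (asparagine endopeptidase, or legumain), and Lgmn-/--IR (n = 3) lacked it. Both genotypes were irradiated, so every difference below lies between genotypes after irradiation, and sham-treated mice were not analysed here. The knockout came from 1 positive embryonic stem cell clone carrying a floxed Lgmn allele, and the mice were obtained by crosses with a Cre line whose driver the methods do not name. The labels number the samples 1 to 3 in each genotype without saying more of how the tissue was taken, so p-values measure only the spread between these samples, part of which may be technical.

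Cells make cholesterol from acetyl-CoA through the mevalonate pathway, and in the brain nearly all of it is made locally because lipoproteins of the blood do not cross the blood-brain barrier. SREBP2 is held in the endoplasmic reticulum with its escort SCAP by the INSIG proteins while sterols are plentiful. When sterols fall, it moves to the Golgi, is cut free and switches on the pathway's genes together. Oligodendrocytes, which build myelin, and astrocytes, which supply neurons with cholesterol in apolipoprotein E particles, are known for high synthesis in the brain. Of the 7 genes, 6 encode enzymes. HMGCS1 makes HMG-CoA early in the pathway, IDI1 converts isopentenyl diphosphate to its isomer, FDFT1 joins farnesyl diphosphates into squalene, SQLE oxidises squalene, LSS closes the rings to lanosterol, and CYP51 removes a methyl group from lanosterol. The remaining gene, Insig1, encodes a sensor that retains SCAP and SREBP2, and it is itself an SREBP2 target.

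The promoters of 3 of the genes are shown. That of Hmgcs1 is given for its match to a sterol regulatory element core that was searched for. Those of Idi1 and Cyp51 are given because these are the genes whose libraries did not overlap between genotypes. The sequences come from RefSeq (GRCm38.p6), run 5′ to 3′ on the strand of the gene and cover 250 bases before to 50 after the transcription start. Hmgcs1 spans chr13:119690101-119690400 on the plus strand, Idi1 chr13:8885356-8885655 on the plus strand and Cyp51 chr5:4104648-4104947 on the minus strand. Capitals mark a sterol regulatory element core (TCACNCCAC or CACCNCAC) and the box CCAAT, bound by NF-Y, on either strand, so that ATTGG is CCAAT on the opposite strand.
Hmgcs1: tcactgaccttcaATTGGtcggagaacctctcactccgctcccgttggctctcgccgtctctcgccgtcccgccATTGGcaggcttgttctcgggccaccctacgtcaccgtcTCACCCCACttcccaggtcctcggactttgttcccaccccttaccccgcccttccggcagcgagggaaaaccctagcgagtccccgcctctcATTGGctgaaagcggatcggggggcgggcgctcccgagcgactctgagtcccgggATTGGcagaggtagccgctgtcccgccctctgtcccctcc
Idi1: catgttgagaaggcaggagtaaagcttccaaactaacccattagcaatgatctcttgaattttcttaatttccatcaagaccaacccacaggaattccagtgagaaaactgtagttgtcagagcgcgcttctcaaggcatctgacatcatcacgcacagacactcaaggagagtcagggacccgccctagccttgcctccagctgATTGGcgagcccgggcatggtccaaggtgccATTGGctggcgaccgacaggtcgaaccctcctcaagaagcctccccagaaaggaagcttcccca
Cyp51: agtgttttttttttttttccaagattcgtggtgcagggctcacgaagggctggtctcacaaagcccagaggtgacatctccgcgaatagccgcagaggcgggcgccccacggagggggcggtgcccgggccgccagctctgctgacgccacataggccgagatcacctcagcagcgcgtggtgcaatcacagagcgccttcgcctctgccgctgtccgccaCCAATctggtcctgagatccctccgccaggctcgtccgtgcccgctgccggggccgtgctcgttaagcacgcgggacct
Hmgcs1 held a sterol regulatory element core 137 bases before its start, where the match to TCACNCCAC overlaps that to CACCNCAC, and it had CCAAT 4 times on the opposite strand. CCAAT was found in 5 of the 5 matched promoters (those of Insig1 and Lss included), in 11 of 12 promoters of other synthesis genes and in 41.1% of all 27025 genes with a promoter of this length. GGGCGG, the core of the Sp1 box, which is not capitalised, was likewise in 5 of 5, in 11 of 12 and in 38.2% of all genes. TCACNCCAC stood in 1 of 5, 0 of 12 and 1.44%, and CACCNCAC in 1 of 5, 2 of 12 and 7.22%. These matches describe letters in a window only. No form of the sterol regulatory element other than TCACNCCAC and CACCNCAC was searched for. A promoter without a match, such as that of Cyp51, may therefore hold another form.

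Total counts ranged from 41874462 to 46829441 per library, and CPM below are counts scaled to library size with edgeR's TMM factors. The targeted gene, Lgmn, was counted 5558, 5528 and 5775 times in the wild-type libraries against 3703, 3269 and 4109 times in the knockout libraries (log2 fold change -0.64, edgeR quasi-likelihood adjusted p = 0.0315), so it was lower in the knockout but still present. The floxed stretch is only part of the gene, and a count per gene does not separate it from the rest. Neuron markers summed to 8306 to 10867 CPM across the 6 libraries and no listed marker of any cell type was at 0 in all of them. Markers of the striatum, a neighbouring region, varied widely. They summed to 363, 892 and 1457 CPM in Lgmn+/+-IR replicates 1, 2 and 3 and to 1364, 284 and 292 CPM in Lgmn-/--IR replicates 1, 2 and 3, so Lgmn-/--IR replicate 1 stood apart from its group. The other defining sets that moved with genotype are given with the results they touch.

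None of the 7 genes differed between genotypes past the test's threshold. With edgeR's quasi-likelihood test and an adjusted p under 0.05 over all genes tested, 0 were higher and 0 were lower, where 1.65% of all genes were higher and 1.68% lower, and 0 met the additional requirement of a log2 fold change over 1 in size, which 2.06% of all genes met. The log2 fold changes (Lgmn-/--IR over Lgmn+/+-IR) ran from -0.23 for Lss to 0.31 for Cyp51, 4 positive and 3 negative, with a median of 0.09 against -0.01 over all genes. At an unadjusted p under 0.05, 2 were higher (Cyp51 and Idi1) and 0 lower, where 9.26% of all genes were higher and 9.34% lower. DESeq2 and limma-voom also called 0 of the 7, each with 1 gene at an unadjusted p under 0.05. In Cyp51 and Idi1 every Lgmn-/--IR library exceeded every Lgmn+/+-IR library, a separation seen in 12.4% of all genes, and no gene of the 7 showed the opposite separation, seen in 13.3%. Bulk RNA does not tell fewer cells of a type apart from less RNA per cell.

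**Figure D1:**
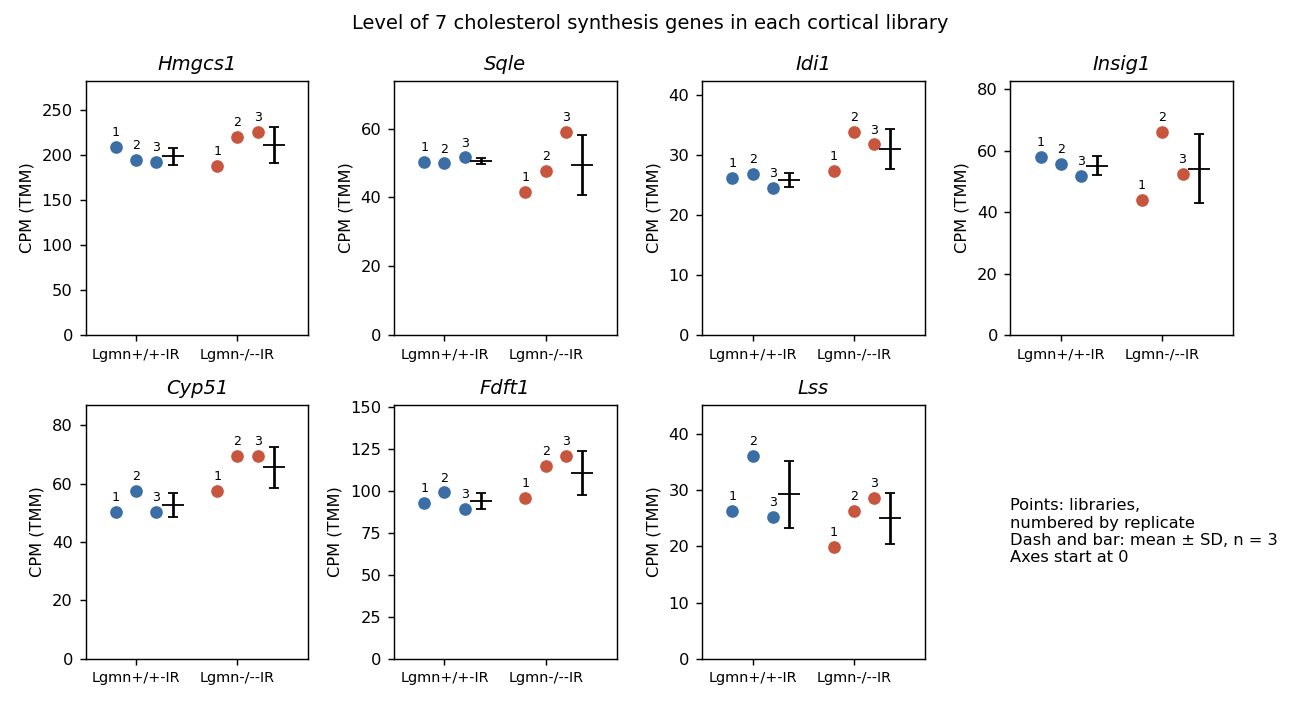
Level of each of the 7 genes in the 6 cortical libraries, in CPM (TMM-scaled counts, linear axes from 0). Points are libraries numbered by replicate, and the dash with its bar is the mean ± SD of 3 libraries. The genotypes overlap in 5 genes, and in Idi1 and Cyp51 every Lgmn-/--IR point lies above the Lgmn+/+-IR points, in Cyp51 only just.

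Hmgcs1, whose promoter above holds a match to the sterol regulatory element cores searched for, is the earliest enzyme of the 7 in the pathway. It (ENSMUSG00000093930, GRCm38 chromosome 13, 119690379 to 119708260) was at 209, 195 and 193 CPM in Lgmn+/+-IR, against 189, 220 and 226 CPM in Lgmn-/--IR. The genotypes overlapped, since the lowest of the 6 values was Lgmn-/--IR replicate 1 while the other Lgmn-/--IR libraries were the highest. The means were 199 ± 9.01 and 212 ± 20.2 CPM (n = 3 each, ± SD), and the log2 fold change was 0.09 (SE 0.10, 95% interval -0.14 to 0.32) and the edgeR adjusted p was 0.670. The interval spans a fold of 0.908 to 1.25.

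Idi1 (ENSMUSG00000058258, chromosome 13, 8885501 to 8892451), the isomerase that makes both building blocks of the isoprenoid chain available, was at 26.2, 26.9 and 24.6 CPM in Lgmn+/+-IR, against 27.4, 33.9 and 31.8 CPM in Lgmn-/--IR. The groups did not overlap, although Lgmn-/--IR replicate 1 lay close to the wild-type libraries. The means were 25.9 ± 1.17 and 31.0 ± 3.35 CPM (SD, n = 3 each), with a log2 fold change of 0.26 (SE 0.11, 95% interval 0.00 to 0.52; edgeR adjusted p = 0.264). Reads of Idi1 can be shared with a near-identical copy, Gm13502, which matches it over 684 bases at 100% identity and had 53 to 83 counts per library against 1118 to 1575 for Idi1.

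Fdft1 (ENSMUSG00000021273, chromosome 14, 63145150 to 63179578), which commits farnesyl diphosphate to sterols, was at 93.1, 99.2 and 89.5 CPM in Lgmn+/+-IR, against 96.1, 115 and 121 CPM in Lgmn-/--IR. Lgmn-/--IR replicates 2 and 3 exceeded all wild-type libraries, and replicate 1 fell among them. The means were 93.9 ± 4.88 and 111 ± 13.1 CPM (SD, n = 3 each), and the log2 fold change was 0.24 (SE 0.11, 95% interval -0.02 to 0.50; edgeR adjusted p = 0.305). Fdft1 shares 774 transcript bases with Ctsb, the gene of the lysosomal protease cathepsin B on the opposite strand, which had 26266 to 31599 counts. Whether counting used strand is not given in the sources used here, so reads of the pair could have been mixed. The log2 fold change of Ctsb itself was 0.09 (edgeR adjusted p = 0.639).

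Sqle (ENSMUSG00000022351, chromosome 15, 59315077 to 59331192), squalene epoxidase and a rate-controlling enzyme of the sterol branch, was at 50.2, 49.9 and 51.7 CPM in Lgmn+/+-IR, against 41.7, 47.6 and 59.1 CPM in Lgmn-/--IR. The 3 wild-type libraries were nearly equal, and the knockout libraries lay on both sides of them. The means were 50.6 ± 0.933 and 49.4 ± 8.84 CPM (SD, n = 3 each), with a log2 fold change of -0.03 (SE 0.14, 95% interval -0.35 to 0.29; edgeR adjusted p = 0.919). Without Lgmn-/--IR replicate 1 this value was 0.08 and its adjusted p 0.809, so its sign rested on that library. The transcript of Sqle matches that of Sdccag8 over 224 bases at 92.9% identity, and Sdccag8 had 961 to 1412 counts per library. Whether reads were shared was not tested.

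Lss (ENSMUSG00000033105, chromosome 10, 76531588 to 76557138), lanosterol synthase, was at 26.3, 36.1 and 25.2 CPM in Lgmn+/+-IR, against 19.8, 26.3 and 28.6 CPM in Lgmn-/--IR. Of the 7 genes it had the largest wild-type spread on the log2 scale (SD 0.28). Lgmn+/+-IR replicate 2 was the highest of the 6 libraries, and the groups overlapped. The means were 29.2 ± 6.01 and 24.9 ± 4.57 CPM (n = 3 each, ± SD), and the log2 fold change was -0.23 (SE 0.19, 95% interval -0.67 to 0.22) and the edgeR adjusted p was 0.568. It was -0.05 without Lgmn+/+-IR replicate 2 (adjusted p = 0.934) and -0.09 without Lgmn-/--IR replicate 1 (adjusted p = 0.860).

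The promoter of Cyp51 above has CCAAT 29 bases before the RefSeq start, which lies inside the GENCODE gene bounds given next. The RefSeq starts of Hmgcs1 and Idi1 also differ from their GENCODE bounds. Cyp51 (ENSMUSG00000001467, chromosome 5, 4081145 to 4104746), the lanosterol demethylase, was at 50.3, 57.50 and 50.4 CPM in Lgmn+/+-IR, against 57.52, 69.6 and 69.7 CPM in Lgmn-/--IR. The groups were separated by less than the last digit usually printed, since Lgmn-/--IR replicate 1 was all but equal to Lgmn+/+-IR replicate 2. The means were 52.7 ± 4.12 and 65.6 ± 6.99 CPM (SD, n = 3 each), and the log2 fold change of 0.31 (SE 0.11, 95% interval 0.05 to 0.58) had an unadjusted p of 0.0271 and an edgeR adjusted p of 0.205, the smallest of the 7. Cyp51 shares 166 transcript bases with Akap9, which encodes a scaffold protein for protein kinase A, lies on the opposite strand and had 2573 to 4896 counts (log2 fold change -0.17, edgeR adjusted p = 0.774).

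Insig1 (ENSMUSG00000045294, chromosome 5, 28071363 to 28078662), the sensor, was at 57.9, 55.8 and 51.8 CPM in Lgmn+/+-IR, against 43.9, 66.1 and 52.5 CPM in Lgmn-/--IR. The lowest and the highest of the 6 values were both knockout libraries. The means were 55.2 ± 3.10 and 54.1 ± 11.2 CPM (SD, n = 3 each), with a log2 fold change of -0.03 (SE 0.15, 95% interval -0.39 to 0.34; edgeR adjusted p = 0.942). Its sign also changed without Lgmn-/--IR replicate 1, to 0.11, with an adjusted p of 0.749.

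Levels were compared between genes on the FPKM scale, which is per length of transcript. Hmgcs1 was highest at 55.0 ± 2.58 FPKM in Lgmn+/+-IR, against 56.9 ± 5.50 FPKM in Lgmn-/--IR, followed by Fdft1 at 29.4 ± 1.86 and 33.6 ± 3.78 FPKM (SD, n = 3 each). Then came Insig1, Sqle and Cyp51, whose neighbours in the order overlapped across libraries, at 18.6 ± 1.36, 16.2 ± 0.377 and 12.3 ± 1.13 FPKM in Lgmn+/+-IR. Insig1 exceeded Sqle in 5 of 6 libraries, and Sqle exceeded Cyp51 in 5 of 6. Idi1 at 7.92 ± 0.319 FPKM and Lss at 5.64 ± 1.17 FPKM were the lowest in Lgmn+/+-IR, and Idi1 exceeded Lss in 6 of 6 libraries. In Lgmn-/--IR the means of Insig1, Sqle, Cyp51, Idi1 and Lss were 17.7 ± 4.07, 15.6 ± 2.16, 14.8 ± 1.66, 9.34 ± 1.40 and 4.39 ± 1.13 FPKM, the same order.

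Within each genotype, the 7 genes tended to be low in the same library. Lgmn-/--IR replicate 1 was the lowest library of its group in 7 of 7 genes, in 8 of 13 other synthesis genes and in 29.1% of all genes tested. Lgmn+/+-IR replicate 3 was the lowest of its group in 5 of 7, against 32.9% of all genes. These are the knockout and wild-type libraries with the highest striatal marker levels, and the part of that difference in the result was not tested beyond the fits that follow. Within Lgmn+/+-IR, replicate 1 had the lowest striatal sum (363 CPM) and was highest of its group in 2 of 7 genes. Replicate 2 (892 CPM) was highest in 4 of 7 and replicate 3 (1457 CPM) in 1. The summed CPM of the 7 genes was 513, 520 and 486 in Lgmn+/+-IR, against 475, 579 and 589 in the knockout, or 506 ± 18.0 and 548 ± 63.1 (SD, n = 3 each), so Lgmn-/--IR replicate 1 was below and replicates 2 and 3 above every wild-type library. When Lgmn-/--IR replicate 1 was left out, 6 of the 7 log2 fold changes were positive, 3 genes had an unadjusted p under 0.05 and 0 passed adjustment, with 0.156 for Cyp51 as the smallest edgeR adjusted p. When Lgmn+/+-IR replicate 3 was left out as well, a choice made after seeing the data, 6 of 7 were positive and the smallest adjusted p was 0.361. With the striatal marker level as a covariate, also added after seeing the data, 4 were positive and the smallest was 0.307.

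**Figure D2:**
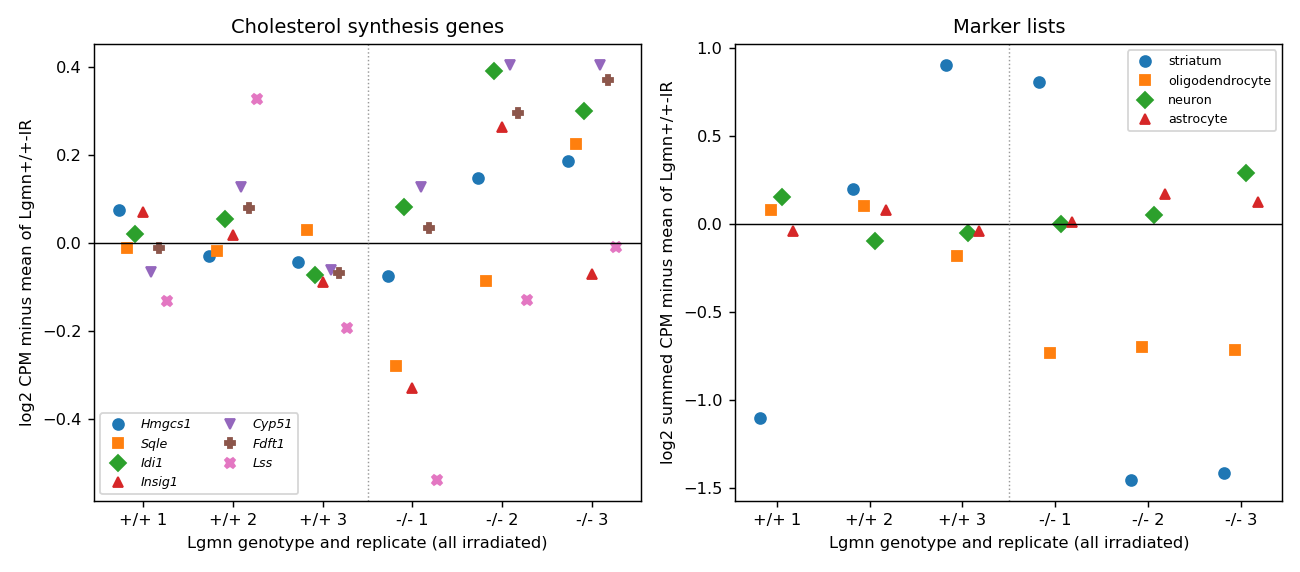
Left, log2 CPM of each of the 7 genes in each library minus the mean of the Lgmn+/+-IR libraries. Right, the same for the summed CPM of 4 marker lists. Lgmn-/--IR replicate 1 holds the lowest knockout value of all 7 genes and a striatal sum of 1364 CPM against 284 and 292 CPM in the other knockout libraries, while the oligodendrocyte sum is low in all 3.

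Correlations of log2 CPM between the genes were positive in 21 of 21 pairs over the 6 libraries, with a median r of 0.47 (0.08 to 0.97), where the median over all gene pairs was 0.00. After each genotype's mean was subtracted, 21 of 21 pairs remained positive with a median r of 0.77 (0.27 to 0.97), and 7.79% of all gene pairs were at or above that median. The closest pair over the 6 libraries was Cyp51 and Fdft1 (r = 0.97), and the loosest was Idi1 and Lss (r = 0.08), which reached 0.78 within genotype. These values describe the same 6 libraries, share their depth and tissue composition, and carry no test. The spread of log2 CPM was larger in Lgmn-/--IR than in Lgmn+/+-IR for 6 of 7 genes, for 10 of 13 other synthesis genes and for 56.6% of all genes.

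The genes most like the mean pattern of the 7 over the 6 libraries were Cd83, which encodes a surface protein of antigen-presenting cells, Tmco3, Wbscr17, Rnd1, which encodes a small GTPase, and Phb2, a mitochondrial prohibitin. Their Pearson r with that pattern was 0.996, 0.98, 0.97, 0.97 and 0.97, and 72 of the 18338 other genes had an r of 0.9 or more. These are the top of a ranking of 18338 genes over only 6 libraries, which carries no test and shows no link in function. Among 13 other synthesis genes, Mvd ranked 116, Nsdhl 360, Fdps 513 and Sc5d 771, which places 4 of 13 in the highest 5% of the ranking. After genotype means were subtracted, 2 of 13 were there (Mvd and Sc5d). Of the others, Pmvk ranked 1681, Ebp 3028, Msmo1 5220, Lbr 7129, Tm7sf2 7225, Mvk 9283, Dhcr7 10196, Acat2 10292 and Hsd17b7 12315 over the 6 libraries.

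None of the 13 other genes of the synthesis pathway passed the edgeR test either. Their log2 fold changes ranged from -0.45 to 0.28, with 8 positive and 5 negative and a median of 0.08. At an unadjusted p under 0.05 there were 1 higher and 2 lower, where 9.26% of all genes were higher and 9.34% lower. Hsd17b7, which encodes the sterol 3-keto reductase, was at 16.8 ± 1.00 CPM in Lgmn+/+-IR, against 12.3 ± 0.821 CPM in Lgmn-/--IR (SD, n = 3 each; log2 fold change -0.45, SE 0.11, edgeR adjusted p = 0.0807). All its knockout libraries were below the wild-type libraries, and DESeq2 called it lower (adjusted p = 0.0194, with 0.0194 to 0.442 over 18 alternatives), the single call of that tool among these 13 genes, where limma-voom called 0. Over all 18345 genes tested, DESeq2 called 746 higher and 677 lower. Acat2, the cytosolic thiolase at the start of the pathway, had a value of -0.31 on the log2 scale (SE 0.10, edgeR adjusted p = 0.170), and Sc5d, a late desaturase, one of 0.28 (SE 0.10, edgeR adjusted p = 0.212).

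**Figure D3:**
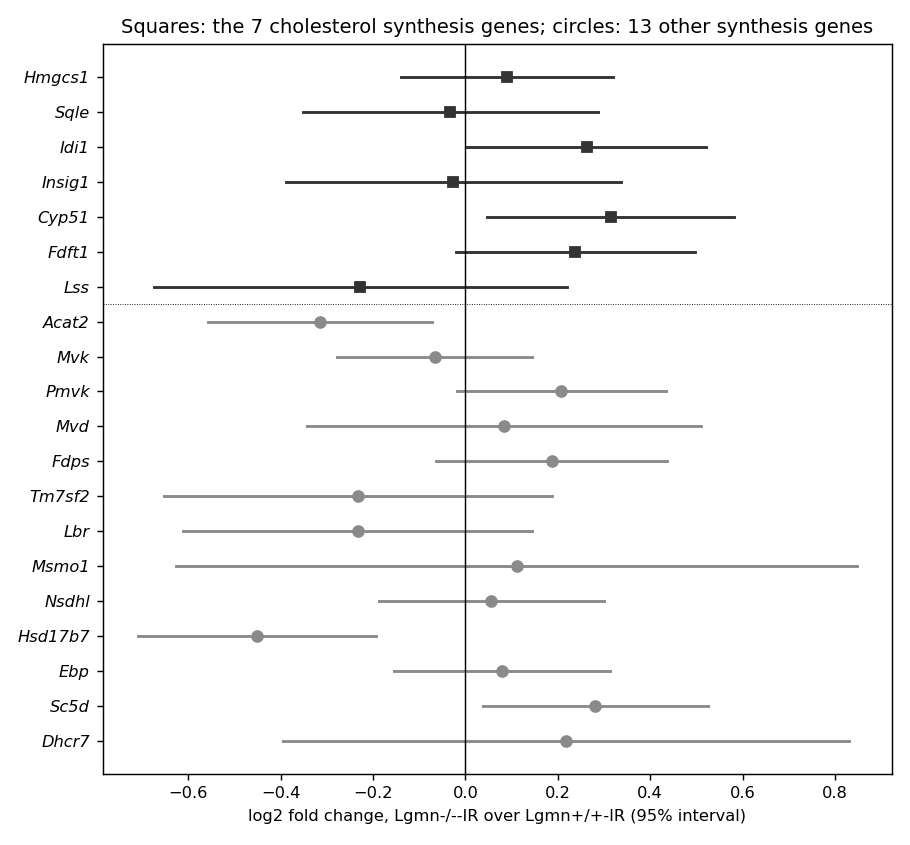
Log2 fold change of Lgmn-/--IR over Lgmn+/+-IR with its 95% interval for the 7 genes (squares) and 13 other synthesis genes (circles), from the edgeR fit. Intervals are not adjusted for the number of genes. Those of Idi1 and Cyp51 among the 7 lie just above 0, that of Sc5d among the others lies above 0 and those of Hsd17b7 and Acat2 below it, and the values of both sets spread to either side of 0.

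The genes listed for the control of SREBP also gave no call. Of 11, 0 passed the edgeR test, DESeq2 or limma-voom, and 5 were positive and 6 negative, with a median log2 fold change of 0.00. At an unadjusted p under 0.05, 0 were higher and 2 lower, where 9.26% of all genes were higher and 9.34% lower. The largest values were those of Syvn1 (0.35, SE 0.31, adjusted p = 0.597) and Ubxn8 (-0.32, SE 0.09, adjusted p = 0.123), which encode proteins of the turnover machinery of the endoplasmic reticulum. Ubxn8 counts among the 2 lower genes. No role of Ubxn8 in SREBP control was established here, so its value is not read as one of that control. The value of Syvn1 was 0.0055 without Lgmn-/--IR replicate 3, 0.67 without Lgmn+/+-IR replicate 1, and 0.20 to 0.53 without each of the other libraries, so its size rested on single libraries. Next in size was Mbtps1, the gene of the site-1 protease that cuts SREBP (-0.27, SE 0.11, edgeR adjusted p = 0.241). It was the other of the 2 lower genes. All its knockout libraries were below the wild-type libraries, a separation seen in 13.3% of all genes. Srebf2, the gene of SREBP2 and chosen here for its role with its values known, was at 247 ± 7.28 CPM in Lgmn+/+-IR, against 284 ± 23.8 CPM in Lgmn-/--IR (log2 fold change 0.21, 95% interval -0.01 to 0.42, edgeR adjusted p = 0.280). For Scap, named on the same ground, the log2 fold change was -0.15 with an adjusted p of 0.343.

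Of 5 genes listed for uptake or as SREBP2 targets, 1 was higher and 0 lower in the edgeR test, where 1.65% of all genes were higher and 1.68% lower. The median log2 fold change was -0.06, and DESeq2 and limma-voom made the same single call, Lrp8. That Lrp8 is an SREBP2 target was not established here, so its call is not read as one of SREBP2. Lrp8, which encodes the reelin and apolipoprotein E receptor ApoER2, was at 23.7, 22.2 and 23.7 CPM in Lgmn+/+-IR, against 69.5, 57.6 and 68.7 CPM in Lgmn-/--IR. Every knockout library was far above the wild-type libraries, and the log2 fold change was 1.49 (SE 0.11, edgeR adjusted p = 0.000659). Lrp8 lies on chromosome 4 of GRCm38 (107802261 to 107876840). Its call held in 18 of 18 alternatives, with a log2 fold change of 0.87 to 1.58. The value was 0.87 in limma on log2(FPKM + 1) and 0.98 on log2(FPKM + 0.1), each under 1. Mean FPKM was 5.28 in Lgmn+/+-IR and 10.5 in Lgmn-/--IR. Lrp8os1 and Lrp8os2 overlap Lrp8 on the opposite strand, and neither had more than 271 counts in a library. Whether reads were shared was not tested.

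The branches and sinks of the pathway gave 0 calls in the edgeR test and in limma-voom. DESeq2 called Coq2, Apoe, Soat1 (an enzyme of cholesterol ester formation, named after its values were seen) and Elovl6, each higher, and no gene of lysosomal cholesterol. Over all 18345 genes tested, that tool called 746 higher and 677 lower. Among 9 tested genes of the isoprenoid branches (of 10 listed, Idi2 having at most 8 counts), 4 were positive and 5 negative with a median log2 fold change of -0.06. At an unadjusted edgeR p under 0.05, 1 was higher and 0 lower, where 9.26% of all genes were higher and 9.34% lower. Coq2 of ubiquinone synthesis (0.50, edgeR adjusted p = 0.108), Pdss1 (-0.32, adjusted p = 0.467) and Dhdds of dolichol synthesis (0.27, adjusted p = 0.713) had the largest values. Among 15 genes of efflux, turnover and the LXR receptors, 9 were positive and 6 negative with a median of 0.11. They included Ch25h, which makes the LXR ligand 25-hydroxycholesterol (0.73, adjusted p = 0.381), Abca1, the cholesterol exporter (-0.49, adjusted p = 0.163), and Apoe at 976 ± 73.8 and 1351 ± 136 CPM (0.47, adjusted p = 0.0674). Ch25h had only 9 to 35 counts per library, its SE was 0.40 and its genotypes overlapped. Of these 15, 3 were higher and 2 lower at an unadjusted p under 0.05, where 9.26% of all genes were higher and 9.34% lower.

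Among 7 genes of lysosomal cholesterol, 2 were positive and 5 negative with a median of -0.09. At an unadjusted edgeR p under 0.05, 1 was higher and 0 lower, where 9.26% of all genes were higher and 9.34% lower. Npc1, the lysosomal cholesterol exporter, was at 0.32 on the log2 scale (adjusted p = 0.192), Osbpl5 at -0.28 (adjusted p = 0.353) and Npc2, its lumenal partner, at -0.17 (adjusted p = 0.424). Of 12 fatty acid synthesis genes, which are SREBP1 targets, 9 were positive and 3 negative with a median of 0.13. At an unadjusted p under 0.05, 4 were higher and 0 lower, where 9.26% of all genes were higher and 9.34% lower. The largest were Fads2, a desaturase (0.44, adjusted p = 0.158), and the elongases Elovl6 (0.39, adjusted p = 0.0786) and Elovl5 (0.26, adjusted p = 0.218).

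**Figure D4:**
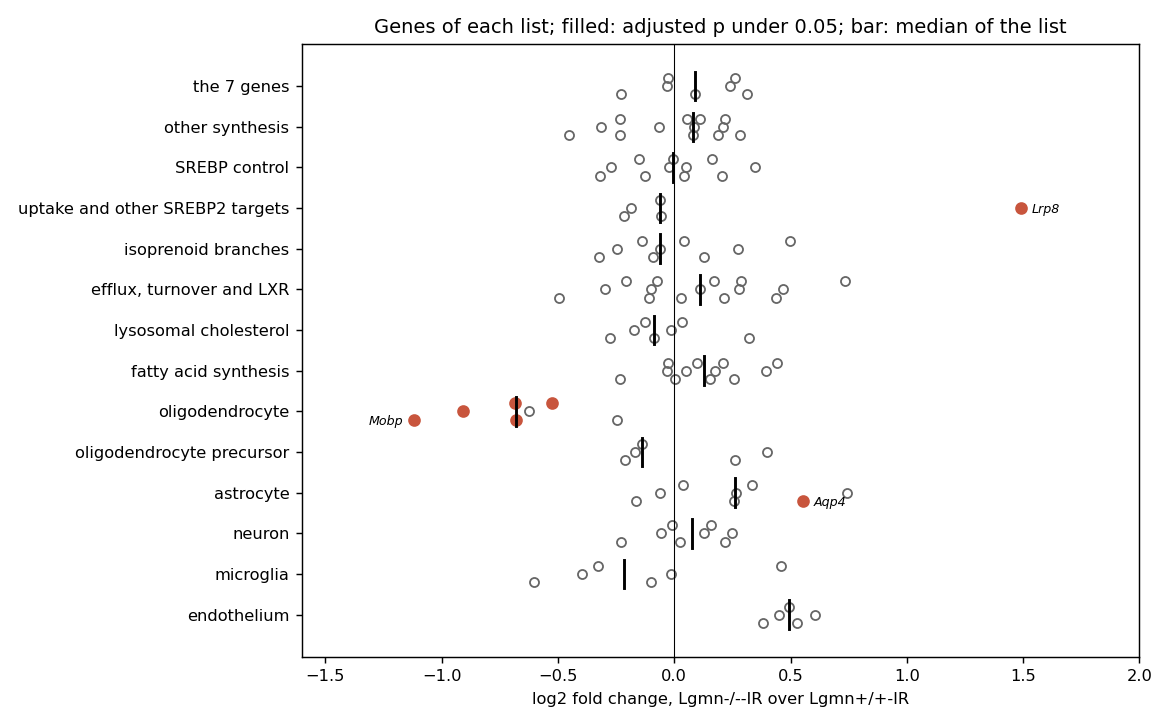
Log2 fold change of each tested gene by list, with filled points for an adjusted p under 0.05 in the edgeR test and a bar at the median of the list. Filled points are absent from the 7 genes and from the other pathway lists except for Lrp8, and 5 of 7 oligodendrocyte markers are filled and below 0. Blood, choroid plexus and striatum markers are not drawn.

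Most oligodendrocyte markers and all blood markers listed differed between genotypes. Over all genes, 1.65% were higher and 1.68% lower in the edgeR test, and 9.26% and 9.34% at an unadjusted p under 0.05. DESeq2 called 746 higher and 677 lower of the 18345 tested. Of 7 oligodendrocyte markers, 5 were lower in Lgmn-/--IR and 0 higher, with a median log2 fold change of -0.68 and a summed level of 2234 to 2722 CPM in Lgmn+/+-IR against 1525 to 1563 CPM in Lgmn-/--IR. Mobp, a myelin protein gene, fell by 1.12 on the log2 scale (SE 0.11, edgeR adjusted p = 0.00330). The count of 5 was 1 without Lgmn+/+-IR replicate 1, without Lgmn+/+-IR replicate 2, without Lgmn-/--IR replicate 1 or without Lgmn-/--IR replicate 3, and 4 without either of the others, and Mobp kept its call in each of these fits. Of 8 astrocyte markers, 1 was higher, the water channel gene Aqp4 (0.55, SE 0.10, edgeR adjusted p = 0.0374, a call held in 8 of 18 alternatives). DESeq2 called 2, Aqp4 and Gja1, a gap junction gene named after its values were seen. At an unadjusted p under 0.05, 4 were higher and 0 lower. In 5 of 8 every knockout library exceeded every wild-type library, a separation seen in 12.4% of all genes. The summed levels of the 8, 3975 to 4328 and 4121 to 4608 CPM, overlapped. Of 5 blood markers, 5 were higher (3 with limma-voom), from summed levels of 7.59 to 15.8 CPM to 234 to 2273 CPM. No marker of neurons (8), microglia (6), endothelium (5), oligodendrocyte precursors (5), choroid plexus (5) or striatum (6) passed the edgeR test or limma-voom, and at an unadjusted p under 0.05 this was 2 lower in microglia and 0 in the others. DESeq2 called 1 of them, the microglial Csf1r, lower. The part of these cell types in the levels of the 7 genes was not tested.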

How the data were processed

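RNA from irradiated cortex was measured in 6 samples, 3 of each Lgmn genotype, with total counts of 41874462 to 46829441. The authors filtered reads with Trimmomatic 0.36 (submitters' processing notes, which also name GRCm38), used HISAT2 for mapping and StringTie for expression values. The deposited raw count of reads per gene is not normalized, and the deposited FPKM is scaled by the authors for transcript length and library size. Read counter, annotation and strand setting are not given in the sources used here. No molecular identifiers were used, so reads are not independent molecules and counting error is only part of the error.

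Counts were fitted on the whole table with edgeR 4.0.16 in R 4.3.3 (TMM, filterByExpr by genotype, quasi-likelihood F-test, Benjamini-Hochberg adjustment over 18345 genes), since the deposited values are counts; the study's methods name limma, which was run as an alternative (limma 3.58.1). Intervals are 95%. The test was tried on simulated counts. The members and lists were chosen with earlier results of these data known. Genes named are the 7 members, Lgmn, the called genes and at most 3 largest changes of each pathway list, and the 5 genes most like the members (Pearson r of log2 CPM, prior count 2); exceptions are marked. Some listed genes are not reported here and were left out of the lists and their counts, while the fit held all genes.

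Positions and overlaps come from GENCODE release M21 (51633 of 51826 gene IDs found), near-identical copies from BLAST 2.17.0+, promoters from RefSeq (5 of 7 members; Sqle and Fdft1 without one). The alternatives included limma-voom, DESeq2 1.42.0, limma on log2(FPKM + 1) and log2(FPKM + 0.1), other normalizations and filters, a replicate block and each library left out. After seeing the data, the striatal covariate and the omission of 2 libraries were added. Within each genotype, no library was a duplicate of another (chi-square per gene 28.7 to 102). Pairs of libraries across genotypes were not compared in this way. Non-irradiated mice and the study's other assays were not analysed here.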

Additional observations from a re-analysis of the deposited data

How the results depend on the processing

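Under 18 alternatives (2 added after seeing the data), 0 of the 7 genes were called in either direction in any of them, and the smallest adjusted p of a member was 0.156. The log2 fold changes of Hmgcs1, Idi1, Cyp51, Fdft1 and Lss kept their sign in all 18. With libraries left out, that of Sqle ran from -0.18 to 0.09 and that of Insig1 from -0.19 to 0.11. That of Sqle reversed to 0.08 without Lgmn-/--IR replicate 1 and to 0.093 when Lgmn+/+-IR replicate 3 was left out as well, and that of Insig1 to 0.11 and 0.06 in the same fits and to 0.02 without Lgmn+/+-IR replicate 1. Among other named genes, Dhdds ran from -0.080 to 0.51 with libraries left out and reversed to -0.05 without Lgmn+/+-IR replicate 3. Other synthesis genes lower numbered 1 with DESeq2 against 0. All genes higher (303) and lower (308) numbered 746 and 677 with DESeq2, 81 and 69 with the replicate block, 73 to 249 and 63 to 251 with 1 or 2 libraries left out. Genes higher numbered 167 in limma on log2(FPKM + 1) with all genes above 0, and genes lower 192 with no low-count filter and 199 where every library had to hold 10 counts or more; the cause was not tested. In the replicate block fit Cyp51 had a log2 fold change of 0.31 and an adjusted p of 0.293. Same-numbered libraries did not deviate together over all genes (correlations -0.25, -0.05 and -0.03). Differences in tissue composition enter these values too, and the labels do not say what the numbers mean. Whether the numbers pair the samples therefore cannot be decided from them. The count of oligodendrocyte markers called lower was 2 with the replicate block and 1 in limma on log2(FPKM + 1) with all genes above 0. Lrp8 and Mobp kept their calls in 18 of 18. Mog kept its call in 12, Cldn11 in 11, Mag in 9, Aqp4 in 8 and Cnp in 7 of 18. With 3 libraries a group, the intervals of the 7 genes allow folds from 0.627 to 1.50.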
